A study of Mus musculus with 2 samples.

Results

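Molecular chaperones of the cytosol and of mitochondria are described here through 32 genes, chosen by symbol from the 32285 genes in the count tables. The rule uses no measured value, but it was written with earlier results of these data known. All 32 were found once each. The cells were mouse embryonic stem cells of the strain C3H/HeSn-Paf/J from 9 lines, 3 each from XX, XO and XY embryos, mixed in 1 pool, so that cells cannot be assigned to lines here. The library called time 1 held cells of the initial time point and the library called time 2 held cells passaged 10 times since then. Both cultures contained serum, leukaemia inhibitory factor and irradiated mouse embryonic fibroblast feeders, were passaged with trypsin and were collected for capture with Accutase. Each time point had 1 library, so nothing was tested between them, and every interval below covers counting error only.

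Chaperones bind unfolded or partly folded proteins. Hsp70 proteins take up unfolded chains, which J proteins deliver and exchange factors release, Hsp90 with its cochaperones matures kinases, receptors and other clients, the ring-shaped chaperonin CCT folds actin and tubulin handed over by prefoldin, and Hsp60 with Hsp10 folds proteins inside mitochondria. When unfolded proteins accumulate, the transcription factor Hsf1 binds heat shock elements, alternating GAA and TTC units spaced by a pair of bases, and the inducible genes Hspa1a, Hspa1b, Hspb1, Hsph1, Dnajb1 and Bag3 are classic targets. Extra chromosomes burden folding in yeast and human cells, which is why the genes were read here across passage, cell states and chromosome gains, as a question about protein-folding stress.

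Several of the genes carry heat shock elements next to their starts, and some of these are shown first. RefSeq promoter windows of the build GRCm38.p6, with 250 bases before and 50 after each start, were found for 26 of the 32 genes in 37 entries. The remaining genes were Hspa8, Hsp90aa1, Hsp90ab1, Hsf1, Cct4 and Hspa9. Elements of 2 units, GAANNTTC or TTCNNGAA, were searched on both strands, and each form is its own reverse complement. They occurred in 15 of the 37 entries (40.5%), belonging to 13 genes, against 15.1% of all 32851 windows of this length. Elements of 3 units, GAANNTTCNNGAA or its reverse complement TTCNNGAANNTTC, occurred in 6 entries (16.2%) against 0.603% of all windows. These 6 entries are not separate sites, because Hspd1 and Hspe1 share a stretch and the windows of Hsph1 overlap, as do those of Dnajb6. A 3-unit match always holds overlapping 2-unit matches. Imperfect elements were not searched, and a match is a description of the letters only. How matches relate to the differences given below was not tested. Of genes higher at time 2, Hspd1, Hspe1 and Hsph1 had 3-unit matches, and Cdc37, Dnaja1 and Cct5 had 1 match of 2 units each. Hspa4, Dnaja2, Dnajc7, Stip1, Pfdn2, Cct3 and Cct8 had no match, and Hsp90ab1 had no window. Dnajb6, with a 3-unit match, had log2 ratios of 0.22 in all stem cells and 0.54 in those without a called gain. Dnajb1, a classic target, had none in either window, and Bag3, lower at time 2, had 1.

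The 3-unit matches belonged to Hspe1, Hspd1, Hsph1 and Dnajb6, and the 30 bases around them are printed with the matched GAA and TTC units in capitals. Hspe1 and Hspd1 are neighbours that point away from each other, and a single stretch of DNA holds the match of both. It lies at chr1:55088053-55088082 on the plus strand, in the first, untranslated exon of an annotated Hspd1 transcript. The Hsph1 match at chr5:149636287-149636316 (minus strand) and the Dnajb6 match at chr5:29735844-29735873 (plus strand) lie in 5′ untranslated exons of those genes.
Hspe1 and Hspd1: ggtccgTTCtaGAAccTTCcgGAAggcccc
Hsph1: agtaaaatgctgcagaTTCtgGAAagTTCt
Dnajb6: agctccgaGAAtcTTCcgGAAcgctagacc

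Hspa1a and Hspb1 are printed over the 150 bases before their starts, because Hspa1a had few UMIs in the stem cells while Hspb1 differed between their clusters. The Hspa1a stretch is chr17:34972157-34972306 on the minus strand and has a single 2-unit match. Its near-identical copy Hspa1b has the same base at 149 of these 150 positions. The Hspb1 stretch is chr5:135887769-135887918 on the plus strand and has 2 matches.
Hspa1a: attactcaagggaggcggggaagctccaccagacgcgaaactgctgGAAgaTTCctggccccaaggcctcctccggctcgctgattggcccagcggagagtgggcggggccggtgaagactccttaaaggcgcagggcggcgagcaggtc
Hspb1: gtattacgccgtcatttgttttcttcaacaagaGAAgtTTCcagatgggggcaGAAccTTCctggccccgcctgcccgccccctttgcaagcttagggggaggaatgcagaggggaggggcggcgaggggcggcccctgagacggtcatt

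The libraries held 1735810403 and 1843588321 unique molecular identifiers (UMIs, counted molecules). After filtering, 23284 cells remained at time 1 and 25538 at time 2, with median UMIs of 44488 and 50442 and median mitochondrial shares of 2.31% and 2.12%. Of the cell barcodes, 192 occurred in both libraries. Clustering without the chaperone genes gave 13 clusters. The pluripotent stem cell-like class joined 4 of them, named by leading genes Rhox9, Nanos3, Apoa2 and Jam2, and held 9845 cells at time 1 and 19448 at time 2. Spry2-led cells, 6041 at time 1 and 12 at time 2, were left outside this class. Over all other cells they had log2 ratios of 0.02 for the pluripotency marker Pou5f1 and -0.98 for Zfp42. The stem cell values of time 1 therefore leave out a large cluster with pluripotency markers. Different clusters made up most of the class in the 2 libraries: Rhox9-led cells numbered 8000 and 921, Nanos3-led cells 122 and 6531, Apoa2-led cells 40 and 9855, and Jam2-led cells 1683 and 2141. Summed pluripotency markers of the class were 10436 CPM (UMIs scaled to the total UMIs of the cells) at time 1 and 7162 at time 2, and feeder fibroblast markers were 11.5 and 15.4 CPM.

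In the pluripotent stem cell-like cells the 32 genes together were higher at time 2. Their sum was 23161 CPM (95% Poisson interval 23148 to 23173) in the first library and 29393 CPM (29383 to 29403) in the second, a log2 ratio of 0.34. Per cell, the median share of UMIs was 2.29% in the first library and 2.94% in the second, and the middle 90% of cells spanned 1.79% to 2.72% and 2.4% to 3.35%. A gene was compared where it reached 10 CPM in either library, and called higher or lower at a log2 ratio of CPM plus 1 at or past 0.3. Of the 29 genes compared, 14 were higher, and 18.8% of all 7375 compared genes were. The 2 lower genes, Bag3 and Hspb1, stand beside a background of 24.5%. The median log2 ratio was 0.25 over the 29 genes and -0.029 over all compared genes. With trimmed mean scaling, which raised the median of all genes to 0.13, 21 of 28 were higher and 0 lower, beside 31.5% and 15.6%. The 3 genes not compared, Hspa1a, Hspa1b and Dnajb4, stayed under 10 CPM in both libraries. UMIs come from 3' ends, so CPM values are set side by side between cells and give no order of abundance between genes.

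**Figure D1:**
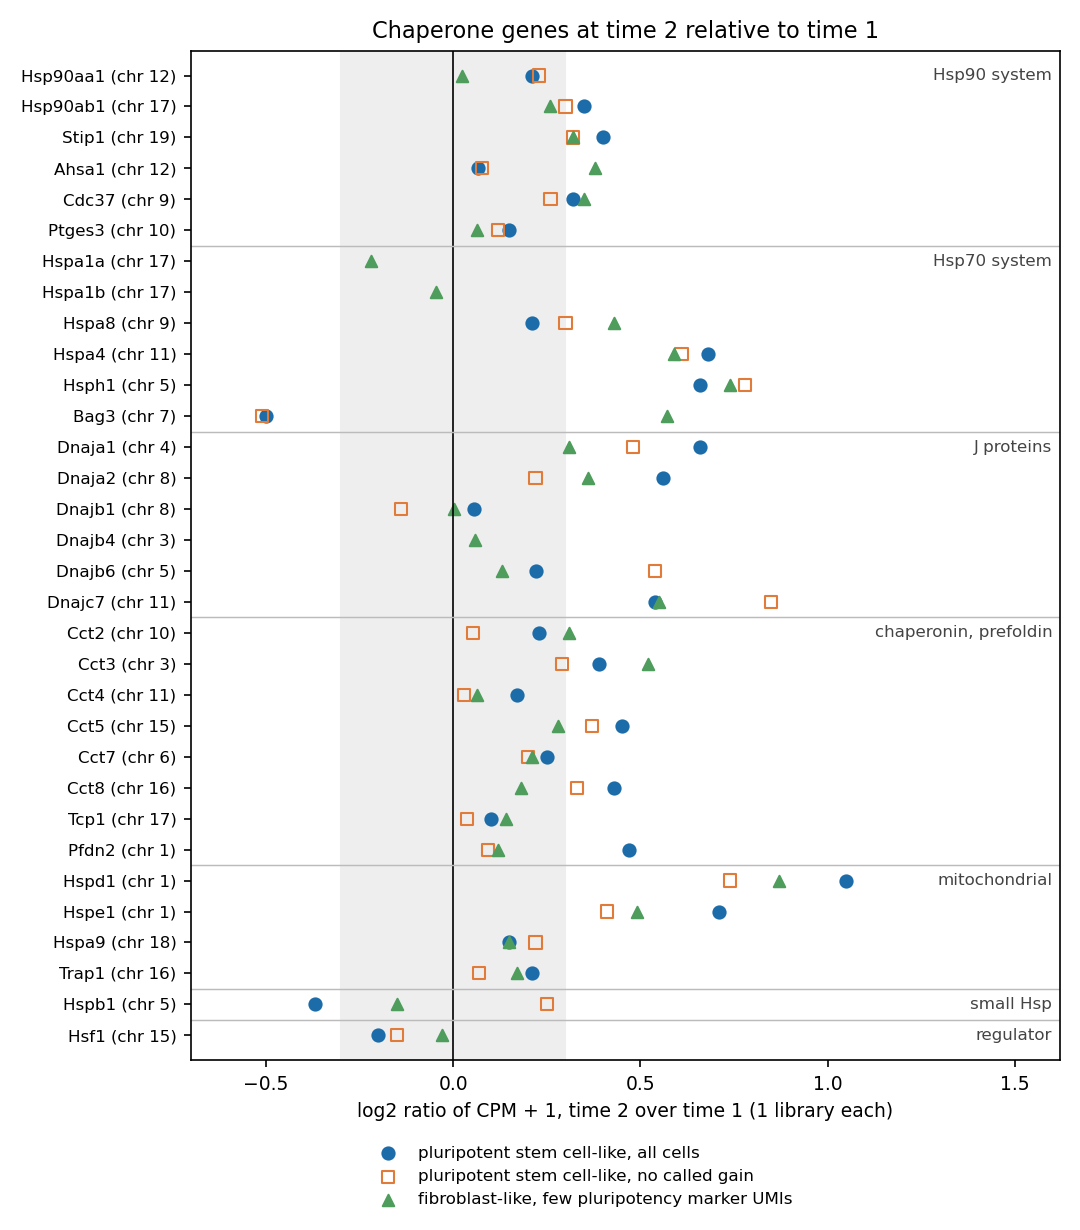
Log2 ratio of CPM plus 1, time 2 over time 1, for each gene (rows, grouped by role, with its chromosome). Circles are all pluripotent stem cell-like cells, open squares those without a called chromosome gain, and triangles fibroblast-like cells with few pluripotency marker UMIs. The grey band marks ratios within 0.3 of 0, and a missing mark is a gene under 10 CPM. Hspd1 lies farthest to the right for all stem cells at 1.05, and Bag3 lies to the left in stem cells at -0.50 and to the right in fibroblast-like cells at 0.57.

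Mitochondrial chaperones summed to 2623 and 4465 CPM (log2 ratio 0.77), and the median over the 4 genes was 0.46. The J proteins summed to 1053 and 1479 CPM (0.49), with a median of 0.54 over the 5 compared. Hspd1, the Hsp60 chaperonin, was at 909.6 CPM (907 to 912) in the first library and 1884 CPM (1881 to 1886) in the second, a log2 ratio of 1.05. Hspe1, its Hsp10 lid, was at 1287 CPM (1284 to 1290.3) and 2106 CPM (2103 to 2108), a log2 ratio of 0.71. For neither gene do the intervals of the 2 libraries overlap. That sets neither apart, because Hspa9, inside the limit, also had separate intervals (366 to 369.5 and 407 to 409 CPM). Both lie on chromosome 1, which was gained in many cells of time 2, and the median log2 ratio of the 411 other compared genes of that chromosome was 0.31. Hspa9, the mitochondrial Hsp70 that pulls imported proteins into the matrix, was at 368 and 408 CPM (log2 ratio 0.15), and Trap1, the mitochondrial Hsp90, at 58.7 and 67.8 CPM (0.21), neither past the limit.

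In the Hsp90 system 3 of 6 genes were higher, beside the 18.8% of all compared genes. Hsp90ab1, the constitutive cytosolic Hsp90, was at 6228 CPM (6222 to 6235) and 7945 CPM (7940.3 to 7951), a log2 ratio of 0.35. Stip1, which bridges Hsp70 and Hsp90, was at 206 and 272 CPM (0.40), and Cdc37, the kinase-specific cochaperone, at 179 and 224 CPM (0.32). Hsp90aa1, the stress-inducible Hsp90, was at 4709.8 CPM (4704 to 4716) and 5467 CPM (5463 to 5471), a log2 ratio of 0.21 and inside the limit. Ptges3, the p23 cochaperone, was at 635 and 704 CPM (0.15), and Ahsa1, which stimulates the Hsp90 ATPase, at 118 and 124 CPM (0.067).

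The Hsp70 system split. Its exchange factors Hspa4 and Hsph1 were higher: Hspa4 was at 333 CPM (331 to 335) and 536 CPM (534 to 537), a log2 ratio of 0.68, and Hsph1 at 72.7 CPM (72 to 73.4) and 116 CPM (115 to 116), a log2 ratio of 0.66. Hspa8, the constitutive Hsp70, was at 2491 CPM (2487 to 2495) and 2882 CPM (2879 to 2885), or 0.21. Bag3, an Hsp70 cochaperone of selective autophagy, was lower, at 10.4 CPM (10.1 to 10.6) and 7.03 CPM (6.88 to 7.19), a log2 ratio of -0.50. In Rhox9-led cells, the one cluster of the class in which Bag3 could be compared, it was at 11.1 and 13.1 CPM (log2 ratio 0.23), and it was under 10 CPM in Jam2-led and Nanos3-led cells at both times. Outside the class it was at -0.44 in Car2-led and -0.42 in Dab2-led cells but at 0.39 in Col1a1-led, 0.22 in Pou3f1-led and 0.19 in Ramp2-led cells. The inducible Hsp70 genes were near absent, Hspa1a at 0.901 CPM (0.824 to 0.984) and 0.966 CPM (0.91 to 1.03), and Hspa1b at 0.947 CPM (0.867 to 1.03) and 1.04 CPM (0.979 to 1.1). These near-identical copies lie side by side on chromosome 17, and reads that fit both may have been lost or misplaced in the counting, so each value is uncertain.

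Of the J proteins, Dnaja1 was at 377 and 597 CPM (log2 ratio 0.66), Dnaja2 at 214 and 316 CPM (0.56) and Dnajc7 at 116 and 169.9 CPM (0.54), all higher. Dnaja1 and Dnaja2 are the main cytosolic partners of Hsp70, and Dnajc7 binds Hsp70 and Hsp90. Dnajb6, which holds back aggregation, was at 296 and 345 CPM (0.22), and Dnajb1, the inducible Hsp40, at 44.6 CPM (44.1 to 45.2) and 46.4 CPM (46 to 46.8), or 0.056. Dnajb4 was at 4.94 and 4.95 CPM.

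Of the 8 chaperonin and prefoldin genes 4 were higher, beside 18.8% of all compared genes, and 4 were inside the limit. Pfdn2, a prefoldin subunit, was at 274 and 380 CPM (log2 ratio 0.47), Cct5 at 461 and 632 CPM (0.45), Cct8 at 468 and 631 CPM (0.43) and Cct3 at 483 and 633 CPM (0.39). Inside the limit, Cct7 was at 461 and 550.3 CPM (0.25), Cct2 at 637 and 748 CPM (0.23), Cct4 at 384 and 432 CPM (0.17) and Tcp1 at 460 and 492 CPM (0.10). These CCT genes encode subunits of 1 ring, and their ratios spanned 0.10 to 0.45.

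The remaining genes are the small heat shock protein and the regulator. Hspb1 was lower, at 851 CPM (849 to 854) and 657 CPM (655 to 658), a log2 ratio of -0.37. Inside the clusters of the class Hspb1 was within the limit, at 0.044 in Rhox9-led, -0.079 in Jam2-led and -0.13 in Nanos3-led cells, and it was at -0.074 in X-low cells. Outside the class it reached 0.76 in Pou3f1-led and 0.53 in Dab2-led cells. Hsf1 was at 18 CPM (17.7 to 18.4) and 15.5 CPM (15.3 to 15.8), or -0.20. Of the 9 genes held as stress-inducible, 6 were compared: Hsph1 and Dnaja1 were higher, Bag3 and Hspb1 lower, beside 18.8% and 24.5% of all compared genes, and the median was 0.14.

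Cells without any called chromosome gain showed most of the same difference. A gain was called where the UMI share of an autosome reached 1.3 times the time 1 median, without use of the 32 genes. There were 8405 such stem cells at time 1 and 3591 at time 2, and their sums were 23227 and 28646 CPM, a log2 ratio of 0.30. Of 29 genes 12 were higher, beside 16.0% of all compared genes, and 1, Bag3, was lower, beside 18.7%. The median was 0.25, and 0.0018 over all compared genes. These cells are part of the stem cells compared above, so the lists of higher genes are not independent. Hspa4 was at 0.61, Hsph1 at 0.78, Dnaja1 at 0.48 and Dnajc7 at 0.85. Hspa8 (0.30) and Dnajb6 (0.54) came past the limit in these cells. Genes on chromosomes 1 and 8 had smaller ratios without gains, Hspd1 at 0.74, Hspe1 at 0.41, Pfdn2 at 0.093, Dnaja2 at 0.22 and Dnajb1 at -0.14. Hspb1 turned, with 881 CPM at time 1 and 1047 CPM at time 2 (0.25). Clusters differ here as well: Jam2-led cells were 19% of the cells without gains at time 1 and 56.4% at time 2.

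The same direction was seen in every one of the 9 clusters with at least 50 cells in both libraries, feeders included. The log2 ratio of the sum was 0.23 in Rhox9-led and Nanos3-led cells, 0.25 in Jam2-led cells, 0.24 and 0.39 in the Pou3f1-led and Car2-led primed epiblast-like cells, and 0.40 in the Tcstv1-led two-cell-like cells. It was 0.38 in the Dab2-led cells with endoderm markers, 0.27 in the unnamed Ramp2-led cells and 0.46 in the Col1a1-led fibroblast-like cells. The Car2-led cells also carried mesendoderm markers. Over all other cells their log2 ratios were 4.08 for Lhx1 and 3.48 for T, beside 1.84 for the primed marker Fgf5. Over the 9 clusters the log2 ratio ranged from 0.40 to 0.76 for Dnajc7, from 0.34 to 0.67 for Dnaja1 and from 0.49 to 1.48 for Hspd1, while the median of all compared genes ranged from -0.051 to 0.05. Passage, library preparation and capture cannot be told apart with 1 library per time point.

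Fibroblast-like cells carry feeder markers and were compared separately. Their barcodes also held pluripotency markers, at 3074 CPM at time 1 and 2938 CPM at time 2, so cells under 1000 CPM of those markers were taken alone, a limit chosen after the values were seen. They numbered 181 and 339, with pluripotency markers at 517 and 399 CPM and fibroblast markers at 7783 and 8707 CPM. Their sum of the 32 genes was 10278 CPM (10221 to 10335) in the first library and 12422 CPM (12370.4 to 12473) in the second, a log2 ratio of 0.27. All 32 genes were compared, and 14 were higher, beside 16.8% of all compared genes in these cells, and none lower, beside 15.9%. Hspd1 was at 288 and 528 CPM (0.87), Hsph1 at 32.4 and 54.8 CPM (0.74), Hspa4 at 182 and 275 CPM (0.59), Dnajc7 at 46 and 67.9 CPM (0.55) and Hspe1 at 497 and 698 CPM (0.49). Bag3 was at 46.7 and 69.6 CPM (0.57), while Hsp90aa1, at 1051 and 1069 CPM, differed by 0.025. Barcodes with under 1000 UMIs, taken as free RNA, had sums of 20027 and 21356 CPM and Hspd1 at 752 and 1302 CPM. These barcodes numbered 4449 and 7491. The deposited counts held no barcode under 500 UMIs at time 1 or 524 at time 2, so barcodes with fewer were not seen. Of 145288 and 52242 barcodes in all, 26092 and 28283 reached the UMI minimum for cells.

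**Figure D2:**
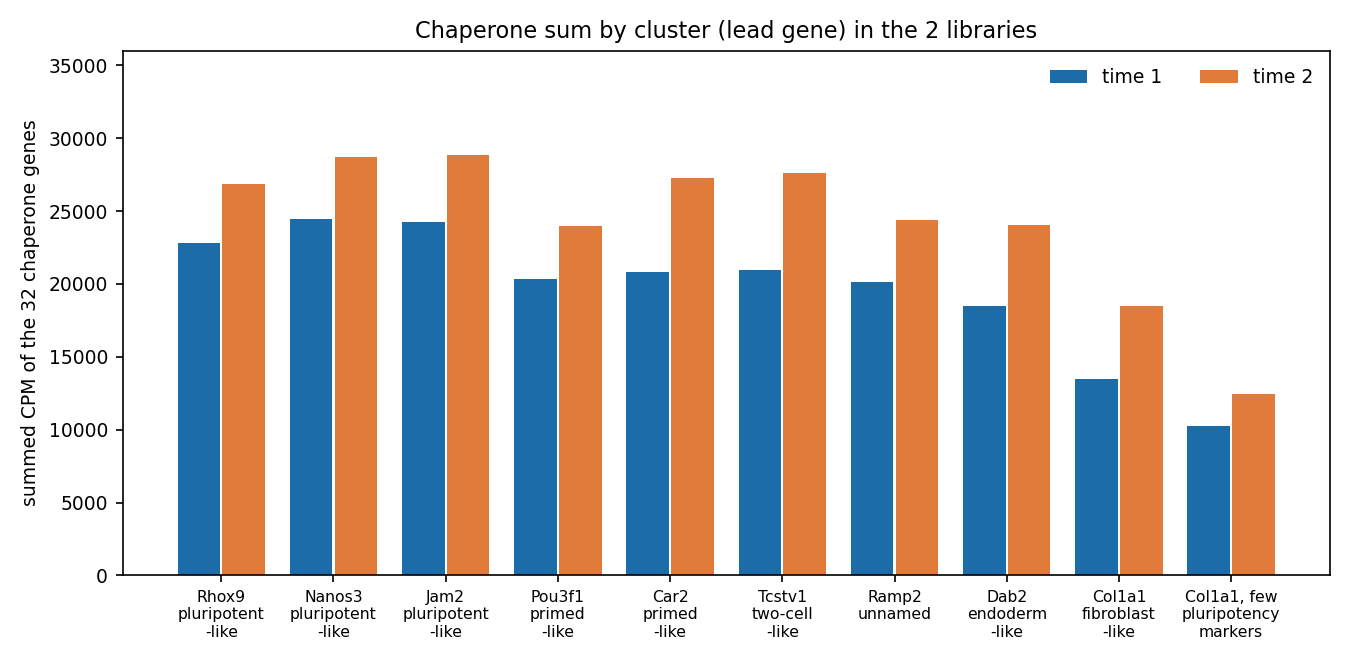
Summed CPM of the 32 genes (y axis, from 0) in each cluster with at least 50 cells in both libraries, named by its leading gene and class, at time 1 (blue) and time 2 (orange). The last pair of bars holds the fibroblast-like cells with few pluripotency marker UMIs. Time 2 is the taller bar in each pair, and the last pair is the lowest, with 10278 and 12422 CPM.

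Levels also differed between cell states of a library. At time 1 the sum was 22829 CPM in Rhox9-led, 24281 in Jam2-led and 24447 in Nanos3-led cells, against 20319 in Pou3f1-led and 20799 in Car2-led primed epiblast-like cells and 13479 in fibroblast-like cells. The lowest value of a whole cluster, 12228 CPM, was in the 69 unnamed Gng3-led cells, which had a median of 352626 UMIs. Clusters with under 50 cells at the other time were the Spry2-led cells at time 1, with 20360.3 CPM, the Lyz2-led cells at time 1, with 16325 CPM, and the Apoa2-led cells at time 2, with 30112 CPM.

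Hsp90aa1 set the primed cells apart from the pluripotent ones. At time 1 it was at 2979 CPM in Pou3f1-led and 2905 in Car2-led cells and at 4698 in Rhox9-led, 4719.6 in Jam2-led and 5242 in Nanos3-led cells. At time 2 it was at 3363 and 3895 CPM in the primed clusters and at 5528, 5433, 5712 and, in Apoa2-led cells, 5329 CPM in the pluripotent ones. No primed cluster reached the level of a pluripotent one in either library, among clusters of at least 50 cells. The Spry2-led cells of time 1, which are in neither class, are not part of this comparison. Its constitutive partner Hsp90ab1 did not follow, with 6271 and 6485 CPM in the primed and 6196, 6321 and 6491 CPM in the pluripotent clusters at time 1. At time 2 it was at 7241 and 8125 CPM in the primed and at 7287 in Rhox9-led, 7776 in Jam2-led, 7681 in Nanos3-led and 8184 CPM in Apoa2-led cells.

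Hspb1 differed widely between clusters. At time 1 it was at 1336 CPM in Jam2-led, 730.5 in Rhox9-led, 285 in Pou3f1-led and 151 in Ramp2-led cells. At time 2 the highest and lowest clusters were the same, with 1265 CPM in Jam2-led and 127 in Ramp2-led cells. Dnajb6 was also highest in Jam2-led cells, at 489 and 533 CPM, against 246 and 277 CPM in Rhox9-led cells. Bag3, Dnajb4 and the Hspa1 genes were higher in fibroblast-like cells: Bag3 was at 36.9 and 48.5 CPM, Dnajb4 at 35.7 and 33.2 CPM and Hspa1a at 10.2 and 5.55 CPM. In the fibroblast-like cells with few pluripotency marker UMIs these were at 46.7 and 69.6, 48 and 50.1, and 11.4 and 9.69 CPM. Early response genes were also high there, at 2061 and 1394 CPM against 713 and 782 CPM in Rhox9-led cells, and their part in these levels was not tested. Fos, Egr1 and Fosb, of the same list, were among the leading genes of the Pou3f1-led cluster too.

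Relative to cells without gains, the chaperone sum of the gain classes ranged from -3.77% to 6.15% in CPM. Without the genes on chromosomes 1 and 8 the range was -4.51% to 0.124%. At time 2 the sum relative to cells without gains was higher by 3.37% in 1936 cells with a gain of chromosome 1 alone, by 3.97% in 4955 cells with gains of 1 and 8, by 6.15% in 1386 cells with gains of 1 and 14 and by 5.74% in 2743 cells with all 3. It was -0.935% in 3232 cells with a gain of chromosome 8 alone. Without the 5 genes on chromosomes 1 and 8 the same classes stood at -0.897%, -1.07%, 0.124%, -0.477% and -1.05%. At time 1 the sum was 3.67% higher in 136 cells with a gain of chromosome 1 and stood at -3.77% in 820 cells with a gain of chromosome 8, and without the 5 genes the values were -0.277% and -4.51%. These values depend on the scaling. With trimmed mean scaling, tried after the data were seen, the log2 ratio of the whole sum at time 2 was 0.10 in place of 0.048 for chromosome 1, 0.18 in place of 0.056 for chromosomes 1 and 8, and 0.038 in place of -0.014 for chromosome 8. At time 1 chromosome 8 turned from -0.055 to 0.0054. Cells called as 1 and 14 had a median chromosome 8 ratio of 1.27, just under the limit for a gain. Cells called as chromosome 1 alone at time 2 had one of 1.13, and the other compared genes of chromosome 8 had a median log2 ratio of 0.14 there.

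**Figure D3:**
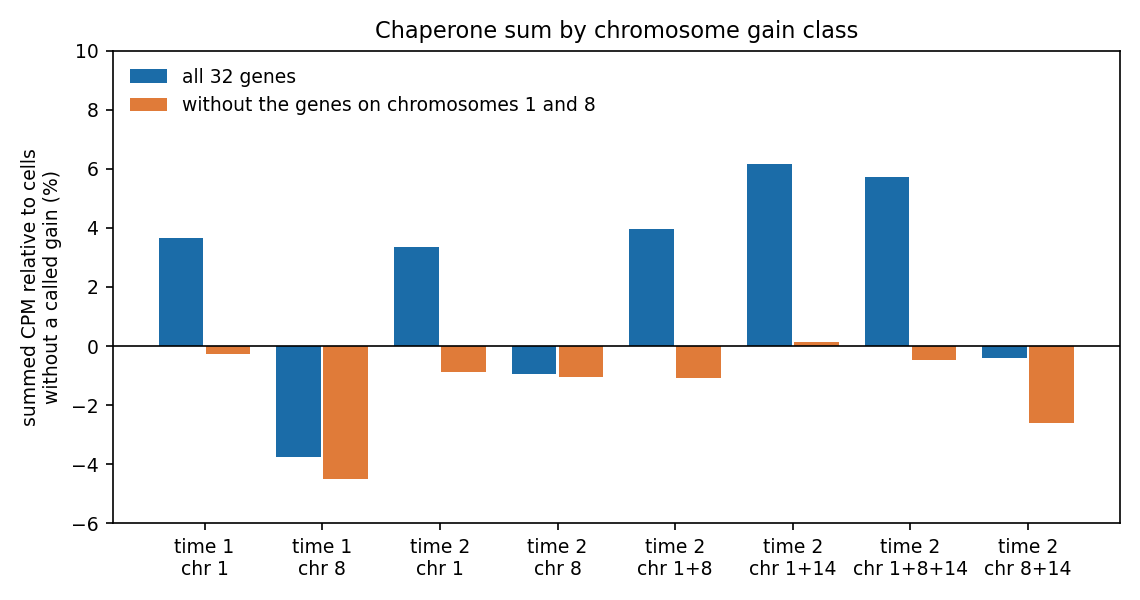
Summed CPM of the chaperone genes in each gain class of pluripotent stem cell-like cells, as percent above or below cells without a called gain of the same library. Blue bars use all 32 genes and orange bars leave out the 5 on chromosomes 1 and 8. Blue bars of the classes with chromosome 1 reach 3.37% to 6.15%, while their orange bars lie between -1.07% and 0.124%.

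Genes on the gained chromosomes were higher in the cells with the gain. Hspd1 (chr1:55077835-55088243, minus strand) was at 1532 CPM (1527 to 1537) without a gain, 1992 CPM (1984 to 1999.9) with chromosome 1, 1409.6 CPM (1404 to 1415) with chromosome 8 and 2040.3 CPM (2035 to 2045) with both at time 2. At time 1 it was at 914 CPM (912 to 917) without a gain and 1189.8 CPM (1166 to 1213) with chromosome 1. Hspe1 (chr1:55088132-55091307, plus strand) was at 1706 CPM without a gain, 2263 with chromosome 1 and 1671 with chromosome 8 at time 2. Pfdn2 (chr1:171345670-171359254, plus strand) was at 289, 414 and 320.0 CPM in those classes. The log2 ratios for chromosome 1 alone were 0.38, 0.41 and 0.52, and the median of the 418 other compared genes of chromosome 1 was 0.44.

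On chromosome 8, Dnaja2 (chr8:85537633-85555344, minus strand) was at 243 CPM without a gain and 347 CPM with chromosome 8 at time 2 (log2 ratio 0.51), and at 208 and 276 CPM at time 1 (0.41). Dnajb1 (chr8:83608193-83612653, plus strand) was at 39.8 and 53.6 CPM at time 2 (0.42) and at 43.9 and 52.4 CPM at time 1 (0.25). For the other compared genes of chromosome 8 the medians were 0.44 (time 2) and 0.48 (time 1). With gains of 1, 8 and 14 together Dnajb1 was at 44.9 CPM, only 0.17 above cells without gains, while Dnaja2 was at 361 CPM (0.57).

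**Figure D4:**
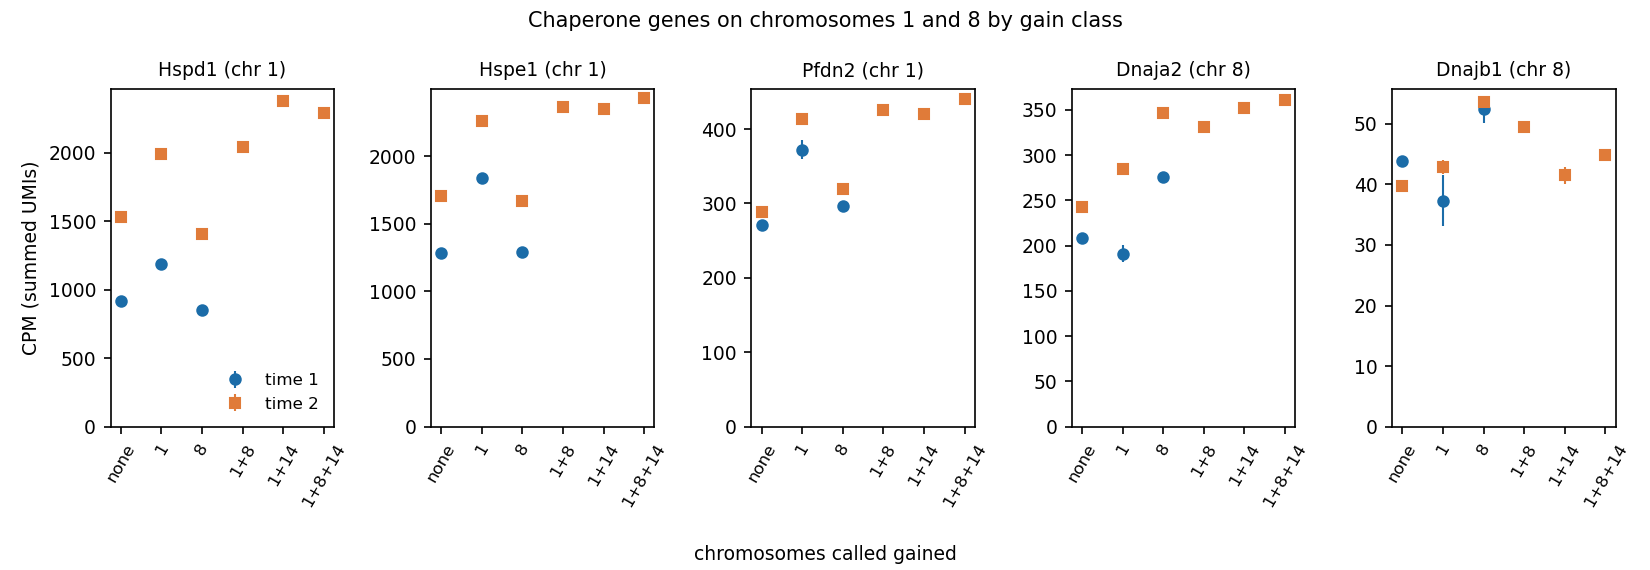
CPM of the 5 chaperone genes on chromosomes 1 and 8 (panels, y axes from 0) by gain class (x axis) at time 1 (circles) and time 2 (squares), with 95% Poisson intervals that are mostly smaller than the marks. Hspd1, Hspe1 and Pfdn2 are higher in each class with chromosome 1 than in the class without gains, and Dnaja2 and Dnajb1 are higher with chromosome 8, for example 347 against 243 CPM for Dnaja2 at time 2.

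With chromosome 1 alone 3 of 28 compared genes were higher (background 10.2%), Hspd1, Hspe1 and Pfdn2, and 3 were lower (16.4%), Hspb1 at -0.93, Dnajc7 at -0.41 and Dnajb6 at -0.39. With chromosome 8 alone at time 2, Dnaja2, Dnajb1 and Cct2 (0.31) were higher (11.6%) and Hspb1 (-0.79), Dnajb6 (-0.55), Hsph1 (-0.39) and Dnajc7 (-0.39) lower (14.7%). At time 1 the chromosome 8 class had 1 of 29 higher (8.39%), Dnaja2, and 4 lower (13.8%), Hspb1 (-0.67), Dnajb6 (-0.48), Hspa8 (-0.35) and Hsph1 (-0.31). With chromosomes 1 and 8 together 5 of 28 were higher (11.9%), the 5 genes on those chromosomes, and 3 lower (20.6%), Hspb1 (-0.93), Dnajb6 (-0.49) and Dnajc7 (-0.48). All classes of a library were compared with the same cells without gains, so these lists share that denominator. Clusters differed as well, and Hspb1 and Dnajb6 were highest in Jam2-led cells. At time 2 Jam2-led cells were 56.4% of the cells without gains, 0.93% with chromosome 1, 0.835% with chromosome 8 and 0.121% with both. At time 1 they were 19% without gains and 1.46% with chromosome 8. The part of the clusters in these ratios was not tested.

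The X class of the cells differed with the gains. Stem cells without Y-linked UMIs were called X-high or X-low by whether X-linked UMIs reached 1.2 times the median of Y-positive cells. X-high cells were 68.2% of the cells without gains at time 2 but 0.693% to 4.73% of the gain classes that hold 1 or 8. Among cells without gains, Hspb1 was at 1009 CPM in X-high and 607 CPM in X-low cells at time 1 and at 1192 and 691 CPM at time 2, and Dnajb6 was at 335 and 242 CPM and at 492 and 335 CPM. The CCT and prefoldin genes went the other way, with 3444 CPM in X-high and 3909 CPM in X-low cells at time 1 and 3942 and 4465 CPM at time 2.

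Restricted to X-low cells without Y UMIs, fewer chaperone genes were lower, but the share of all compared genes that was lower fell too. That share went from 16.4% to 7.05% with chromosome 1 alone and from 20.6% to 11.3% with chromosomes 1 and 8. With chromosome 8 alone it went from 14.7% to 3.22% at time 2 and from 13.8% to 6.87% at time 1. The smaller counts are therefore not particular to the chaperone genes. With chromosome 1 alone 3 genes were higher (background 6.25%) and 1 lower (7.05%). With chromosome 8 alone 2 were higher (4.99%) and 0 lower (3.22%) at time 2, and 1 was higher (6.55%) and 1 lower (6.87%) at time 1. With chromosomes 1 and 8 the counts were 3 (8.45%) and 1 (11.3%). Hspb1 was then at 691 CPM without a gain, 542 with chromosome 1 and 595 with chromosome 8 at time 2, and Dnajb6 at 335, 339 and 302 CPM.

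Hspa1a and Hspa1b were read cell by cell, since a heat shock response in few cells would not show in a sum. After each cell was thinned to 10000 UMIs, 173 of 9845 stem cells (1.76%, exact Clopper-Pearson 95% interval 1.51% to 2.04%) at time 1 and 358 of 19448 (1.84%, 1.66% to 2.04%) at time 2 had at least 1 UMI of either gene. With all UMIs the shares were 8.95% and 10.2%. No stem cell had 5 or more thinned UMIs, which allows shares of up to 0.0305% and 0.0154%, taken as 3 cells of the total. The exact Clopper-Pearson 95% intervals reach higher, to 0.0375% and 0.019%. These limits cover counted UMIs only, since reads that fit both genes may have been lost. Such cells were seen elsewhere, 2 of 152 in the Tcstv1-led cells at time 1, 1 in the Lyz2-led cells at time 1, 1 in the Pou3f1-led cells at time 2 and 1 in the Col1a1-led cells at each time. The highest share with at least 1 UMI, 21.4% (11.6% to 34.4%), was in the 56 unnamed Lyz2-led cells at time 1. The fibroblast-like cells had shares of 10.2% (7.51% to 13.4%) and 10.9% (8.66% to 13.5%), and Pou3f1-led cells 4.58% (4.07% to 5.13%) and 5.85% (3.56% to 8.98%). Free RNA held 1.58 and 2.72 CPM of Hspa1a and 3.69 and 3.14 CPM of Hspa1b, above the stem cell levels but resting on 6 to 15 UMIs each. How many of the UMIs in stem cells came from free RNA was not tested.

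The other inducible genes were slightly higher in stem cells with 1 Hspa1 UMI than in those with none. They summed to 6230.5 CPM (6179 to 6282) in the 167 cells with 1 UMI and 6069 CPM (6062 to 6075) in the 9672 cells without at time 1, and to 7124 CPM (7088 to 7161) and 6891 CPM (6886 to 6896) at time 2. Of these, Hspb1 was at 973 against 849 CPM at time 1 and at 759 against 655 CPM at time 2, while Bag3 was at 12.2 against 10.3 CPM and at 6.31 against 7.05 CPM. Chaperones of the endoplasmic reticulum summed to 2538 against 2424 CPM and to 2363 against 2274 CPM. Early response genes were at 770.5 against 701 CPM and at 619 against 547 CPM. In the 6 cells of time 1 with 2 to 4 UMIs, the inducible genes summed to 5602 CPM (5319.5 to 5896) and early response genes to 1319.7 CPM.

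Other chaperone lists were read beside the 32 genes. Of 54 further cytosolic and mitochondrial chaperones and cofactors, 46 were compared, 13 were higher and 5 lower, beside 18.8% and 24.5% of all compared genes, and the median log2 ratio was 0.069. Sugt1, Ppid and Chordc1, all cochaperones of Hsp90, had its largest ratios. The 15 chaperones of the endoplasmic reticulum, which answer to a separate stress pathway, had 1 higher and 7 lower against the same backgrounds and a median of -0.20. In cells without called gains, where the backgrounds were 16.0% and 18.7%, they had 3 higher, 1 lower and a median of -0.01. Early response genes, which cell dissociation can raise, had 2 higher and 8 lower of 10 compared in all stem cells (backgrounds 18.8% and 24.5%) and a median of -1.03, and their part in the passage difference was not tested. With gains of chromosomes 1 and 8, 11 of the 15 endoplasmic reticulum genes were lower and none higher, with a median of -0.39, beside backgrounds of 20.6% and 11.9%. In X-low cells without Y UMIs 4 of 14 were lower and none higher, with a median of -0.25, beside 11.3% and 8.45%. At time 2, 8 of the 15 were lower with chromosome 1 alone (background 16.4%) and 7 with chromosome 8 alone (14.7%). In X-low cells 0 of 14 were lower in either class (7.05% and 3.22%). With chromosome 8 at time 1, 2 of the 15 were lower (13.8%), and 0 in X-low cells (6.87%).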

How the data were processed

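Libraries of 2 time points from the 10x 3' (v3.1) assay were used. The deposited values are raw UMI counts per gene and barcode; the authors made them with bcl2fastq 2.20.0.422 and Cell Ranger 6.1.2 on mm10 (GRCm38), per the submitters' processing notes. The 32 genes and the lists beside them were chosen with earlier results of these data known.

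Barcodes passed at 18315 (time 1) or 18646 UMIs (time 2), 1000 genes and at most 10% mitochondrial UMIs. Scrublet's automatic threshold marked 0 cells, so, after that was seen, about the top 10% of its scores per library was removed (2452 and 2711 cells). Cells were clustered with scanpy 1.11.5 and leidenalg 0.10.2 at resolution 0.5 without 101 chaperone genes, and clusters were named from marker lists. GENCODE M21 positions matched 32235 of 32285 features. UMIs were summed per library and class and divided by all UMIs (CPM). Ratios are log2 of CPM plus 1. Poisson and Clopper-Pearson intervals are at 95%. The code was tested on simulated data. Alternatives used edgeR 4.0.16 scaling factors, other filters and populations. Named in full were genes past 0.3 in a comparison, the 5 with most UMIs, those on chromosomes 1 and 8, and Hspa1a, Hspa1b and Hsf1, with at most 4 examples from each other list.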

Additional observations from a re-analysis of the deposited data

Results flagged for a closer look

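For 3 genes the difference between time points had opposite signs in different clusters, past 0.3 each way. Bag3 had a log2 ratio of 0.39 in Col1a1-led fibroblast-like cells and -0.44 in Car2-led primed epiblast-like cells. Trap1 was at 0.32 in the Col1a1-led cells and -0.43 in the Dab2-led cells. In the fibroblast-like cells with few pluripotency marker UMIs Trap1 was inside the limit, at 0.17. Hsf1 was at 0.99 in the Dab2-led cells, where it rested on 17 UMIs at time 1 and 158 at time 2, and at -0.32 in the Pou3f1-led cells. With 1 library per time point the difference between clusters was not tested for any of them. Genes and clusters were not chosen independently of these values, and the Dab2-led cluster held 51 and 105 cells.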

How the results depend on the processing

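With 1 library per time point no difference could be tested, and counting intervals leave out culture, capture and sequencing. No paired analysis was possible because each time point had 1 library, which leaves a single pair. The log2 ratio of the sum between time points, 0.34, was 0.49 with trimmed mean scaling (all genes then had a median of 0.13), 0.37 over autosomes outside 1, 8 and 14, 0.35 as a mean over cells, 0.39 with primed cells added, 0.34 with doublets kept, 0.37 in X-low cells, 0.27 as an unweighted mean over genes and 0.42 in all filtered cells. At a limit of 0.5, 7 genes were higher in place of 14, beside 8.33% of all compared genes, and with trimmed mean scaling 21 of 28 were, beside 31.5%. The 2 lower genes became 0 with trimmed mean scaling and 1 with primed cells added, at 50 CPM, at 0.5 and in X-low cells. In cells without gains the 12 higher genes became 5 at 0.5, and the 1 lower gene became 0 at 50 CPM. No share of all compared genes stands beside these counts or those of the 2 lower genes here. That share also moves with the setting, so these counts cannot be read against a background.

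For chromosome 1 alone at time 2, the 3 higher genes became 1 at 0.5, and the 3 lower became 1 at 0.5, at a gain threshold of 1.4 and in X-low cells. For chromosome 8 alone at time 2, the 3 higher became 1 at 0.5 and at 1.4, and the 4 lower became 2 at 0.5 and 0 in X-low cells. At time 1, the 1 higher became 2 with trimmed mean scaling and 0 at 0.5, and the 4 lower became 2 with trimmed mean scaling or primed cells and 1 at 0.5 or in X-low cells. For both chromosomes, the 5 higher became 1 at 0.5, 2 at 1.4 and 3 in X-low cells, and the 3 lower became 1 at 0.5 and in X-low cells. Of these settings, only X-low cells have the share of all compared genes given above, so the other counts cannot be read against a background.

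Sums by gain class, as log2 ratios over cells without gains, changed sign in several settings, and the cause was not tested beyond each setting's construction. Without the genes on chromosomes 1 and 8, chromosome 1 at time 1 went from 0.052 to -0.004, chromosome 1 at time 2 from 0.048 to -0.013, 1 and 8 from 0.056 to -0.015, and 1, 8 and 14 from 0.081 to -0.0069. The others were then 0.0018 for 1 and 14 (from 0.086), -0.067 for chromosome 8 at time 1 (from -0.055) and -0.038 for 8 and 14 (from -0.006). With trimmed mean scaling chromosome 8 turned to 0.0054 at time 1 and to 0.038 at time 2 (from -0.014), while chromosome 1 was 0.10 and 1 and 8 were 0.18 at time 2. Over autosomes outside 1, 8 and 14 chromosome 8 was -0.05 at time 1 and -0.0035 at time 2, chromosome 1 was 0.08 and 1 and 8 were 0.10. In X-low cells the values were 0.06 and -0.04 at time 1 for chromosomes 1 and 8, and 0.041, -0.022, 0.051, 0.081 and 0.073 at time 2 for 1, 8, 1 and 8, 1 and 14, and all 3. With mitochondrial shares up to 20%, sums at time 1 were 24226 CPM in Jam2-led, 20285 in Pou3f1-led and 22812 in Rhox9-led cells. With all UMIs the Hspa1 shares were 8.95% and 10.2%. Of 634 other values (named genes and Hspa1 shares by cluster), 425 moved beyond counting error and 208 did not. A change of sign was counted only for ratios past 0.3, which happened once: Dnajb6 with chromosome 1 alone at time 2 was at 0.019 in X-low cells against -0.39 in all. Genes within 0.3 of 0 also changed sign in X-low cells. The X-low settings between all cells of the time points and for the sums by gain class, and both other scalings of those sums, were chosen after seeing the data.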
